A study of Homo sapiens with 9 samples.

Results

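The 10 long noncoding genes studied here, whose primary transcripts carry microRNAs, were MIR17HG, MIR22HG, MIR100HG, MIR210HG, MIR34AHG, MIR155HG, MIR29B2CHG, MIR31HG, MIR222HG and MIR193BHG. They were chosen by name, not by a measured value, although earlier results of these data were known. All 10 of 10 were found among the 60609 gene identifiers of the count tables. RNA sequencing after removal of ribosomal RNA was done in 9 libraries of U2-OS, an established human osteosarcoma cell line. The question was how host transcript levels compare between cells that overexpress NCBP2, the cap-binding subunit of the nuclear cap-binding complex, and cells with an empty vector.

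The NCBP2-overexpressing cells were clone A1 (3 libraries) and clone A4 (3 libraries), so that arm rests on 2 clones. The empty-vector cells were 3 clones made in the same way, with 1 library each, named here by their letters as vector libraries A, B and C. The parental background and the medium were the same for all 9 libraries. Nothing in the labels says that the libraries of an NCBP2 clone came from separate cultures, so the spread within clone A1 or clone A4 may be technical. The spread of the vector libraries also holds differences between 3 clones. A p-value measures only the spread between these libraries, with both kinds pooled. Because A1 and A4 are 1 clone each, an effect of NCBP2 cannot be told apart from a difference between clones in either comparison with vector. Both NCBP2 clones were compared with the same vector libraries, so these comparisons are not independent of each other.

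A microRNA host gene is transcribed by RNA polymerase II into a capped primary transcript. The Microprocessor, made of DROSHA and DGCR8, cuts the hairpins out in the nucleus, DICER1 trims them to mature microRNAs in the cytoplasm, and an Argonaute protein loads 1 strand. The cap-binding complex, the dimer of NCBP1 and NCBP2, sits on the cap of nascent transcripts and, with the adaptor ARS2 (gene SRRT), is known to help deliver primary microRNA transcripts to the Microprocessor. The level of a host transcript is therefore a level of precursor RNA and spliced by-product, not of the mature microRNA, which these libraries did not measure.

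The mature microRNAs below show what the hosts encode. They were taken from RefSeq (GRCh38.p14), in which all 20 microRNAs listed for the 10 hosts were matched, and they held 16 distinct seeds. Capitals mark the seed, bases 2 to 8 counted from the 5′ end, which pairs with the target mRNA. Shared seeds occurred in 4 pairs, and in each case both partners lie in 1 host. In MIR17HG these were miR-17-5p with miR-20a-5p and miR-19a-3p with miR-19b-3p.
hsa-miR-17-5p: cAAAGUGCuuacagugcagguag
hsa-miR-20a-5p: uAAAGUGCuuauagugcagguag
hsa-miR-19a-3p: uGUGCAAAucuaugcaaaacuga
hsa-miR-19b-3p: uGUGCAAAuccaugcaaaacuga
MIR29B2CHG and MIR222HG each carried 1 further pair.
hsa-miR-29b-3p: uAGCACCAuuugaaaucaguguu
hsa-miR-29c-3p: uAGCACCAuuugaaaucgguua
hsa-miR-221-3p: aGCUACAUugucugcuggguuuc
hsa-miR-222-3p: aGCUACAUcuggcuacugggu
The microRNAs of MIR155HG, MIR34AHG and MIR193BHG shared no seed with another of the 20 listed. Seeds of other microRNAs were not compared.
hsa-miR-155-5p: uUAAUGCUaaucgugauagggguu
hsa-miR-34a-5p: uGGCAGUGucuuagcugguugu
hsa-miR-193b-3p: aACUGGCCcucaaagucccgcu
hsa-miR-365a-3p: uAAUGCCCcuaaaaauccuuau

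Gene counts per library on the strand of the gene ranged from 29234022 to 50554080. Clone A1 replicate A had the fewest genes with a count (21823, against 25390 to 29787 in the other 8). Its log2 CPM correlated least with the other libraries (r from 0.899 to 0.928, against 0.947 to 0.970 among the other 8), so values with and without it are given where a result rests on it. NCBP2 was at 299, 348 and 305 CPM (counts scaled to the TMM-adjusted library size) for clone A1. Clone A4 had 796, 1035 and 456 CPM, against 98.4, 90.6 and 98.3 CPM for vector libraries A, B and C. That is a log2 fold change of 1.73 (SE 0.242) for clone A1 and 2.99 (SE 0.254) for clone A4, with adjusted p of 0.0327 and 0.000417 in edgeR's quasi-likelihood test. With both clones as 1 arm the NCBP2 difference was 2.50 (SE 0.407, adjusted p 0.123). Of the osteoblast-lineage markers, RUNX2 was at 182 to 294 CPM, COL1A1 at 532 to 1883 CPM and SPARC at 1398 to 2250 CPM, while SP7 was at 0 in 8 of 9 libraries. Telomerase TERT, known to be off in this line, and the T-cell marker CD3E were at 0 in all 9 libraries. The low markers of other cell types were EPCAM at 2.42 to 5.58 CPM, CDH1 at 0.598 to 3.63 CPM and PTPRC at 0.400 to 2.01 CPM.

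None of the 10 hosts passed the adjusted p threshold of 0.05 in any of the 4 comparisons. In clone A1 against vector, edgeR called 0 of 10 members, 1 had an unadjusted p under 0.05 (MIR155HG), and DESeq2 called 0. Of all 21682 genes tested, 0.0646% were called and 7.51% had an unadjusted p under 0.05. In clone A4 against vector the counts were 0 called by edgeR, 0 at the unadjusted threshold and 0 by DESeq2, where 0.115% and 5.25% of all genes passed the adjusted and unadjusted thresholds. In clone A4 against clone A1, edgeR and DESeq2 called 0 hosts and 1 passed unadjusted (MIR222HG), against 0.161% and 6.63% of all genes. With the 6 NCBP2 libraries as 1 arm, 0 hosts were called by either tool and 1 passed unadjusted (MIR155HG), against 0.0184% and 5.71%. All of these percentages are edgeR's. Over the same 21682 genes, DESeq2 called 274 in clone A1 and 185 in clone A4 against vector. It called 246 for clone A4 against clone A1 and 103 in the arm. With counts summed per clone, MIR155HG did not pass unadjusted in the arm.

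Non-overlap of the libraries gave a similar picture. The CPM ranges of clone A1 and vector did not overlap for 2 of 10 hosts, MIR34AHG and MIR155HG, against 14.2% of all genes tested. Clone A4 and vector did not overlap for 1 host, MIR193BHG, against 12.1%. The 2 NCBP2 clones did not overlap for 1 host, again MIR193BHG, against 13.6%. No host separated all 6 NCBP2 libraries from all 3 vector libraries, which 3.74% of all genes did. With 10 members, each of these counts is near the share seen over all genes.

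The median log2 fold change of the 10 hosts was -0.18 in clone A1, -0.01 in clone A4, 0.18 for clone A4 against clone A1 and -0.04 for the NCBP2 arm. Over all genes tested the medians were -0.02, 0.03, 0.04 and 0.02. Of the hosts, 3 were above 0 and 7 below in clone A1, and 5 were above and 5 below in clone A4 and in the arm. For clone A4 against clone A1, 7 were above and 3 below. The 95% intervals extended 0.51 to 3.22 log2 units to either side of the value in clone A1, so small differences were not detectable at this depth and spread, and a missed threshold does not show equal levels.

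**Figure D1:**
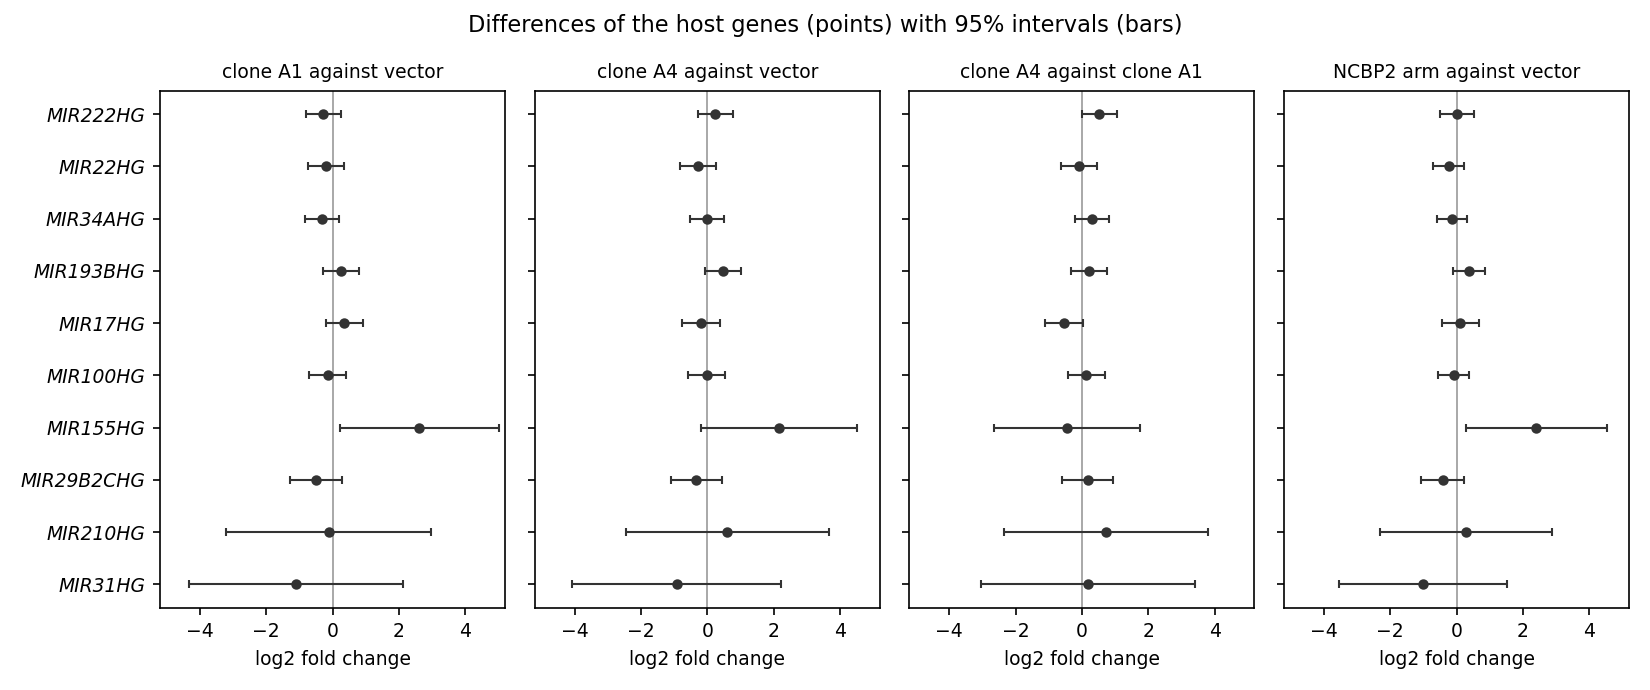
Log2 fold change (x axis) of each host gene (y axis, ordered by level per exon length) in the 4 comparisons, with points for edgeR's estimate and bars for the 95% interval. The intervals of MIR155HG in clone A1 and in the NCBP2 arm lie clear of 0, that of MIR222HG for clone A4 against clone A1 touches it, the others include it, and the widest bars belong to MIR155HG, MIR210HG and MIR31HG. The arm intervals count the 6 libraries of 2 clones as separate.

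Levels differed far more between hosts than between groups. Per kilobase of annotated exon, MIR222HG was highest, with a mean of 11.4 CPM per kb over the 9 libraries, followed by MIR22HG (4.43), MIR34AHG (2.08) and MIR193BHG (1.65). Next came MIR17HG (0.925) and MIR100HG (0.916), then MIR155HG (0.447), MIR29B2CHG (0.427) and MIR210HG (0.141), and MIR31HG was lowest (0.0102). MIR222HG exceeded MIR22HG, and MIR22HG exceeded MIR34AHG, in 9 of 9 libraries with no overlap of their ranges. Every later pair of neighbours overlapped in range, and MIR17HG and MIR100HG were in this order in only 5 of 9 libraries. The exon lengths are those of GENCODE release 44, in which 9 of the 10 hosts carry another version than in the count tables, so the order depends on that annotation.

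**Figure D2:**
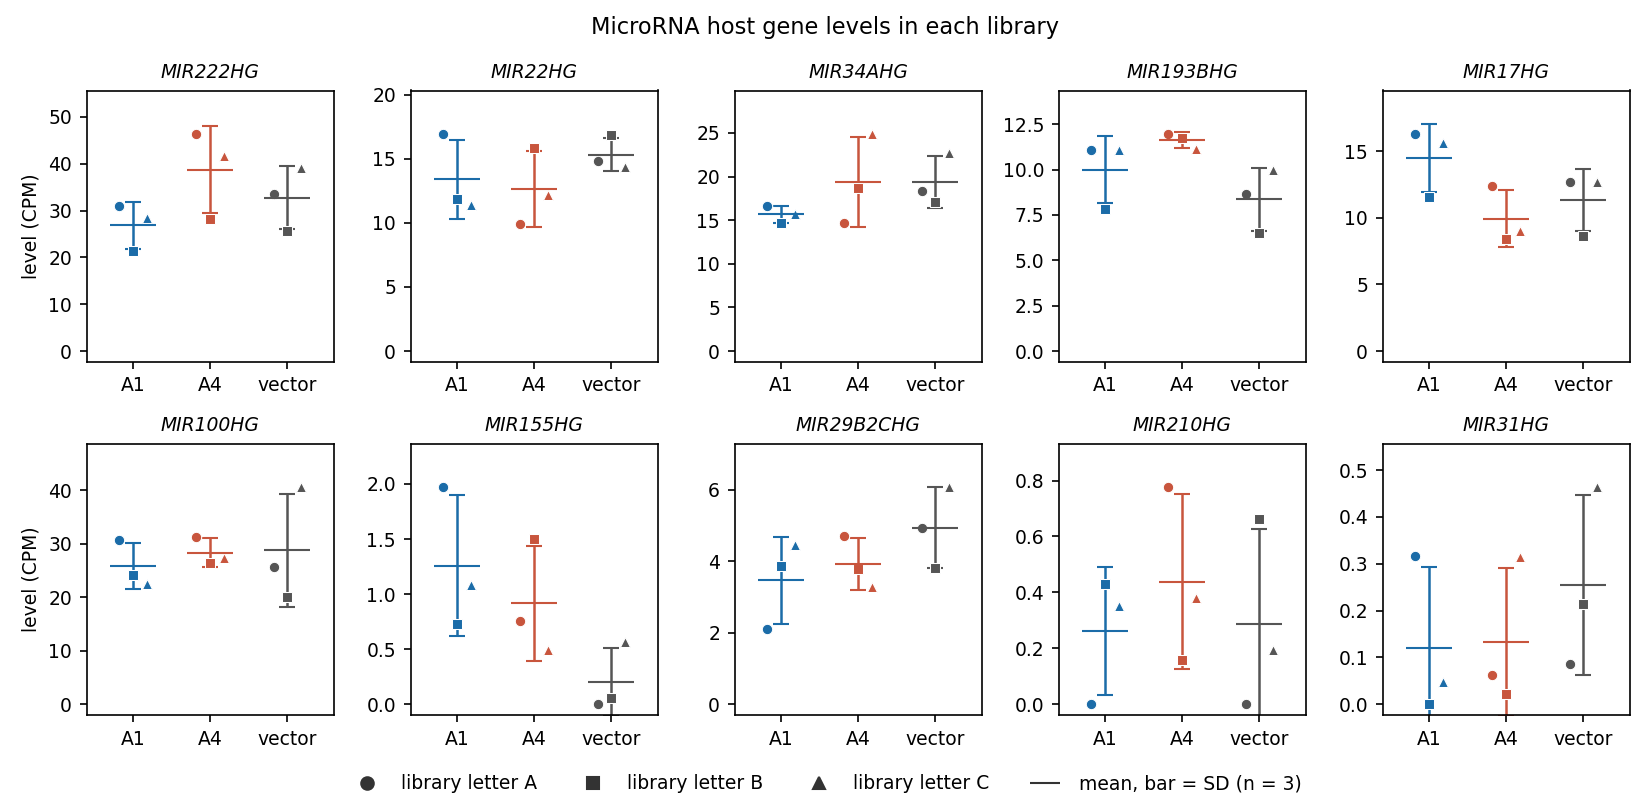
Level of each host gene in CPM (y axis, scaled per panel) in the libraries of clone A1, clone A4 and the vector clones, with marker shape for the library letter and horizontal lines and bars for mean and SD (n = 3). MIR193BHG in clone A4 (11.1 to 12.0 CPM) lies above all vector libraries (6.50 to 9.95 CPM), whereas most other panels overlap.

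A pair of hosts is linked to cell-cycle entry. MIR17HG (chr13:91347686-91397592, plus strand, GRCh38) is the MYC-induced host of the miR-17-92 cluster. The 3 libraries of clone A1 had 16.3, 11.6 and 15.6 CPM of it, those of clone A4 had 12.4, 8.42 and 9.0 CPM, and vector libraries A, B and C had 12.65, 8.63 and 12.7 CPM. Clone A1 was the highest group (14.5 ± 2.56, SD, n = 3) and clone A4 the lowest (9.93 ± 2.14), with the vector libraries between them (11.3 ± 2.34) and all 3 groups overlapping. The difference of clone A4 from clone A1 was -0.55 (SE 0.263, 95% interval -1.12 to 0.03), with an unadjusted p of 0.0600 and an adjusted p of 0.764 in edgeR. Without clone A1 replicate A it was -0.45 (adjusted p 1). MYC, its best-known activator, differed between these clones by -0.13 (SE 0.182, adjusted p 0.890), and was picked out here for that role. Of the other listed regulators of host transcription, MYCN was at -0.55 (SE 0.474) and E2F3 at -0.25 (SE 0.165) between these clones. E2F1 was at 0.085 (SE 0.388). A link of these genes to the MIR17HG level was not tested.

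MIR222HG (chrX:45745210-45770274, minus strand) hosts miR-221 and miR-222, which are known to repress the cyclin-dependent kinase inhibitor CDKN1B. Clone A1 had 31.0, 21.3 and 28.3 CPM, clone A4 had 46.4, 28.3 and 41.6 CPM, and vector libraries A, B and C had 33.5, 25.6 and 39.0 CPM. Clone A4 replicates A and C stood above every other library, and the library with the letter B was the lowest in each of the 3 groups. The log2 difference of clone A4 from clone A1 was 0.53 (SE 0.243, 95% interval 0 to 1.06), with an unadjusted p of 0.0499 and an adjusted p of 0.753 in edgeR. That unadjusted p was 0.0337 without clone A1 replicate A and 0.199 without clone A4 replicate A. Against vector, clone A1 was at -0.28 (SE 0.243) and clone A4 at 0.25 (SE 0.242), so the NCBP2 arm was at 0.01 (95% interval -0.51 to 0.52).

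Next come 3 hosts known for responses to stress. MIR34AHG (chr1:9148011-9198906, minus strand) is induced by DNA damage and hosts miR-34a, which slows the cell cycle. Clone A1 had 16.6, 14.7 and 15.7 CPM, clone A4 had 14.6, 18.6 and 24.9 CPM, and vector libraries A, B and C had 18.3, 17.1 and 22.7 CPM. All clone A1 libraries lay below all vector libraries, although by a narrow margin, and clone A4 spanned both. The difference of clone A1 from vector was -0.31 (SE 0.236, 95% interval -0.82 to 0.21, adjusted p 0.810), and that of clone A4 was 0.00 (95% interval -0.51 to 0.51, adjusted p 1). The antisense gene LNCTAM34A, which shares 431 exon bases with it, was at 2.37 to 4.32 CPM and differed from vector by -0.04 in clone A1 (SE 0.356) and -0.03 in clone A4 (SE 0.355).

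MIR22HG (chr17:1711447-1717174, minus strand), the host of miR-22 and a gene induced by several cell stresses, had an even level. Levels were 16.9, 11.8 and 11.4 CPM for clone A1, 9.95, 15.8 and 12.2 CPM for clone A4, and 14.8, 16.8 and 14.4 CPM for vector libraries A, B and C. Its widest span, 9.95 to 16.9 CPM, lay within the NCBP2 libraries, and the vector libraries sat in the upper part of that span. Clone A1 differed from vector by -0.20 and clone A4 by -0.28, both with an SE of 0.251 and with adjusted p of 0.887 and 1. Without clone A1 replicate A the clone A1 value was -0.39 (adjusted p 0.981), and over all libraries left out in turn it ranged up to -0.10. The clone A4 value ranged from -0.49 without its replicate B to -0.15 without its replicate A. WDR81, which overlaps its locus on the opposite strand without sharing exon bases, was at 2.22 to 11.3 CPM, and none of its comparisons passed the adjusted threshold.

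MIR210HG (chr11:565657-568457, minus strand) hosts the hypoxia microRNA miR-210 and was near the limit of counting. Clone A1 had 0, 16 and 15 counts, clone A4 had 37, 7 and 17, and vector libraries A, B and C had 0, 34 and 8. A count of 0 allows up to 3 counts, which is 0.106 CPM in clone A1 replicate A and 0.0650 CPM in vector library A, a limit for counting error only. The means were 0.261 ± 0.229 CPM for clone A1, 0.439 ± 0.313 CPM for clone A4 and 0.286 ± 0.341 CPM for vector, with intervals of the differences over 2 log2 units to either side. Clone A1 differed from vector by -0.12 (SE 1.42), and by 0.44 without its replicate A. Of the 10 hypoxia targets listed, 9 were tested and none was called. The smallest p values were those of PDK1, a kinase that holds back pyruvate oxidation (0.45 in the arm, SE 0.186, adjusted p 0.795), and NDRG1, a stress-induced protein (0.64 for clone A4 against clone A1, SE 0.284, adjusted p 0.734).

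A further 3 hosts carry microRNAs known mainly for differentiation and growth restraint. MIR100HG (chr11:122028325-122556721, minus strand), the longest of the hosts, carries miR-100, let-7a-2 and miR-125b-1. Levels in clone A1 were 30.8, 24.2 and 22.5 CPM, those of clone A4 were 31.3, 26.3 and 27.4 CPM, and vector libraries A, B and C were at 25.7, 20.1 and 40.6 CPM. The vector clones alone spanned the whole range of the NCBP2 libraries. The arm differed from vector by -0.09 (SE 0.216, 95% interval -0.55 to 0.38, adjusted p 0.999), and by 0.23 without vector library C.

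MIR193BHG (chr16:14301389-14331067, plus strand) hosts miR-193b and miR-365a, which are known from fat and muscle differentiation. Clone A4 was tight at 12.0, 11.8 and 11.1 CPM, clone A1 was at 11.1, 7.85 and 11.1 CPM, and vector libraries A, B and C were at 8.64, 6.50 and 9.95 CPM. All clone A4 libraries lay above all vector libraries. They also lay above all clone A1 libraries, although by a narrow margin (11.13 against 11.05 CPM). The difference of clone A4 from clone A1 was 0.22 (SE 0.253, adjusted p 0.872 in edgeR). Clone A4 exceeded vector by 0.47 (SE 0.253, 95% interval -0.08 to 1.03), with an unadjusted p of 0.0853 and an adjusted p of 1 in edgeR. Without vector library B that value was 0.32, and over the other libraries left out in turn it reached up to 0.60. The clone A4 mean was 11.6 ± 0.434 CPM, against 8.37 ± 1.74 CPM in the vector libraries and 9.98 ± 1.85 CPM in clone A1.

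MIR29B2CHG (chr1:207760650-207879115, minus strand) hosts miR-29b-2 and miR-29c, which are known to target collagen mRNAs. Clone A1 had 2.11, 3.87 and 4.44 CPM, clone A4 had 4.72, 3.78 and 3.29 CPM, and vector libraries A, B and C had 4.94, 3.83 and 6.08 CPM. Clone A1 replicate A was the lowest library, and the other NCBP2 libraries (3.29 to 4.72 CPM) lay on both sides of the lowest vector library (3.83 CPM). The difference of clone A1 from vector was -0.50 (SE 0.355, 95% interval -1.28 to 0.27, adjusted p 0.789), and it was -0.24 without clone A1 replicate A. CD46, a complement regulator on the opposite strand that shares 797 exon bases with it, was at 154 to 274 CPM. COL1A1 was at -0.64 in clone A1 (SE 0.243, adjusted p 0.522) and at 0.83 for clone A4 against clone A1 (SE 0.243, adjusted p 0.359). It was at 0.19 in clone A4 against vector (SE 0.242, adjusted p 1) and at -0.17 in the arm (SE 0.282, adjusted p 0.999). Clone A1 replicate A had 532 CPM of COL1A1, against 950 and 992 CPM in clone A1 replicates B and C. A link between COL1A1 and this host was not tested.

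The last group holds the hosts best known from immune cells and senescence. MIR155HG (chr21:25561810-25575168, plus strand), the host of miR-155 and a gene switched on in activated lymphocytes, had the largest difference of the 10. Clone A1 had 56, 27 and 46 counts, clone A4 had 36, 66 and 22, and vector libraries A, B and C had 0, 3 and 23. In CPM, clone A1 was at 1.97, 0.726 and 1.08, clone A4 at 0.755, 1.5 and 0.493, and vector at 0, 0.0586 and 0.561. The clone A1 libraries lay above all vector libraries, while vector library C lay above 1 clone A4 library, replicate C.

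Clone A1 exceeded vector in MIR155HG by 2.62 (SE 1.10, 95% interval 0.23 to 5.00, unadjusted p 0.0340, adjusted p 0.611 in edgeR). For clone A4 the value was 2.16 (SE 1.08, 95% interval -0.19 to 4.51, adjusted p 1), and for the NCBP2 arm 2.40 (SE 0.986, unadjusted p 0.0298, adjusted p 0.789). The size rested on the vector libraries: the arm value was 5.02 without vector library C and 1.82 without vector library A. Without clone A1 replicate A, clone A1 stood at 2.15 (adjusted p 0.895). DESeq2 gave an adjusted p of 0.264 for the arm. Both arm fits count 6 libraries from 2 clones as separate. With counts summed per clone, MIR155HG did not reach an unadjusted p under 0.05 in edgeR for the arm. The MIR155HG counts are low, since 3 counts correspond to between 0.0586 and 0.106 CPM.

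Strand mattered for MIR155HG more than for any other host. Over the 9 libraries, 1010 of its counts lay on the opposite strand and 279 on its own, which is 78.4%. The share was 60.2% to 80.5% in the NCBP2 libraries and 89.3% to 100% in the vector libraries. The opposite strand itself had a mean level of 3.08 ± 1.36 CPM for clone A1, 2.40 ± 0.443 CPM for clone A4 and 2.79 ± 1.90 CPM for vector, so its groups overlapped. When counts were taken without regard to strand, the MIR155HG differences were 0.52 in clone A1, 0.14 in clone A4 and 0.34 in the arm (adjusted p 0.903, 1 and 1). Over all genes, 5.51% to 6.42% of a library's stranded counts were on the opposite strand, and the part that reads of the opposite strand have in the MIR155HG values was not tested.

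**Figure D3:**
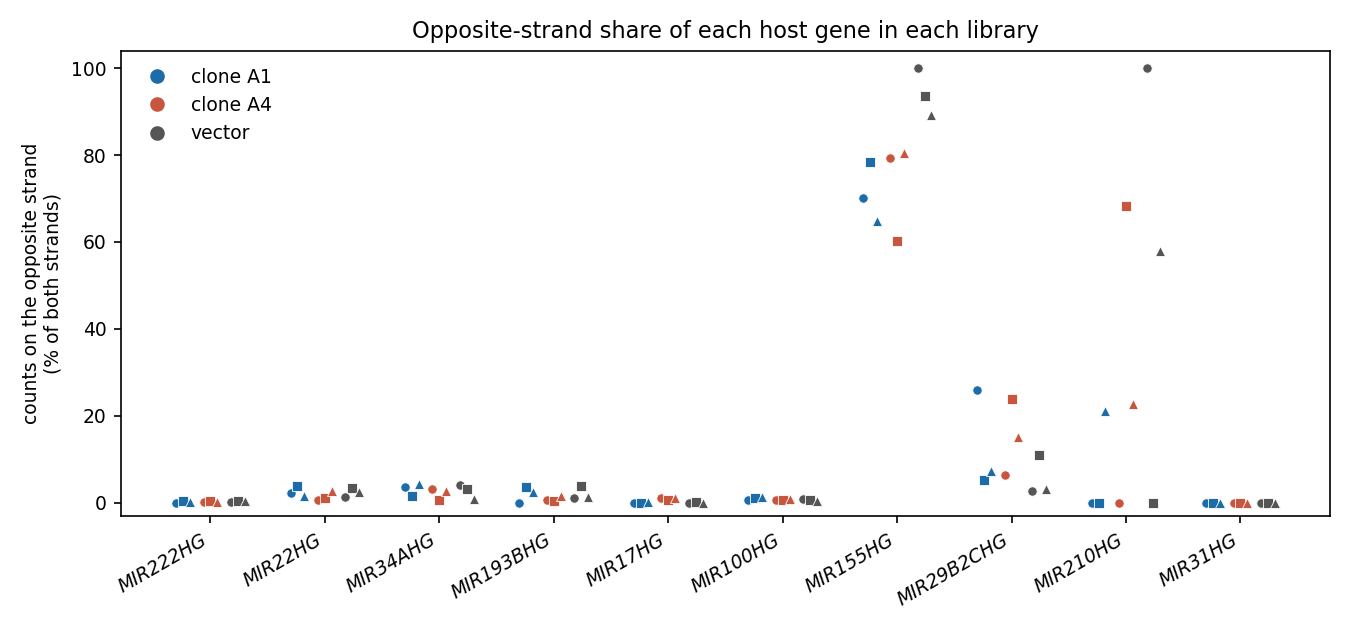
Share of each host gene's stranded counts on the opposite strand (y axis, %) in each library, by host gene (x axis) and group (colour), with shapes for the library letter as in the plot of levels. MIR155HG stands at 60.2% to 100%, MIR29B2CHG and MIR210HG scatter, and the other 7 hosts have under 5% over all libraries.

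Over the 9 libraries 7 of the 10 hosts had under 5% of their counts on the opposite strand. MIR29B2CHG, which overlaps CD46, had 9.84%, with 25.9% in clone A1 replicate A and 23.9% in clone A4 replicate B. MIR210HG had 21.6%, from a total of 171 counts without regard to strand. MIR31HG had none, and MIR222HG and MIR17HG had 0.213% and 0.312%.

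MIR31HG (chr9:21380073-21559891, minus strand), the host of miR-31 and a regulator of senescence, was the lowest host. Clone A1 had 9, 0 and 2 counts, clone A4 had 3, 1 and 14, and vector libraries A, B and C had 4, 11 and 19. These are at most 0.464 CPM, and all 3 groups overlapped. The differences from vector were -1.10 (SE 1.48) in clone A1 and -0.92 (SE 1.45) in clone A4, with intervals over 3 log2 units to either side, so neither a fall nor a rise was detectable at this depth. Single libraries moved these values. The clone A1 value was -3.24 without its replicate A and -0.38 without vector library C, and the clone A4 value was -2.50 without its replicate C and -0.22 without vector library C. The type I interferon genes IFNA1, IFNA2 and IFNA8, which overlap its long span, had 0 counts in all libraries. IFNE, another type I interferon gene in that span, on the same strand, had 15 counts in clone A4 replicate A and 12 in vector library C. It had 0 in every other library.

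The rows of the hairpins themselves were counted apart from the hosts. All 20 hairpin genes lay inside their host on the same strand and had a row of their own in the tables. Of the 12 hairpins over an exon of a host transcript, 11 had 0 counts in all libraries, and of the 8 in introns alone 7 had a count. Reads that fit more than 1 gene enter no gene row in these tables and made up 1.88% to 3.75% of a library's reads, so a 0 in an exonic hairpin row does not show that the hairpin region was without reads. For the same reason the host rows leave out reads that also fit an exonic hairpin.

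The hairpin rows with 50 or more counts over the 9 libraries were MIR221 (312), MIR222 (105), MIR100 (103), MIR365A (71) and MIRLET7A2 (63). The hairpins of the MIR222HG pair and of MIR365A are printed from RefSeq (GRCh38.p14), with the mature strand in capitals, because their rows hold the counts described next.
MIR221, chrX:45746157-45746266, minus strand: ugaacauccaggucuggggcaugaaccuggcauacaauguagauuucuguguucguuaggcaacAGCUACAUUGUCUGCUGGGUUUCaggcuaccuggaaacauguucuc
MIR222, chrX:45747015-45747124, minus strand: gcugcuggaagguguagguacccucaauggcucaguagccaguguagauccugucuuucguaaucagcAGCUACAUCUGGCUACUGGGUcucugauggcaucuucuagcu
MIR365A, chr16:14309285-14309371, plus strand: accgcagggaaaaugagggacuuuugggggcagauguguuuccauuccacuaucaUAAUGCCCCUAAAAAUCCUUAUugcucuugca

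MIR221 shares 24 bases with an exon of 1 of the 4 annotated MIR222HG transcripts, and its row held 0, 30 and 39 counts for clone A1, 36, 45 and 49 for clone A4, and 39, 27 and 47 for vector libraries A, B and C. Apart from clone A1 replicate A the libraries were close to each other. The MIR222 row held 0, 7 and 4 counts for clone A1, 9, 29 and 34 for clone A4, and 0, 13 and 9 for vector, so clone A4 replicates B and C stood above the rest. Its difference of clone A4 from clone A1 was 2.44 (SE 1.42, adjusted p 0.800), next to 0.53 for the host. That value includes clone A1 replicate A, with 0 counts. Within clone A4 the order differed, since replicate A had the highest host level (46.4 CPM) and the lowest MIR222 row (9 counts). Of the 20 hairpin rows 4 passed the filter on low counts (MIR100, MIRLET7A2, MIR221 and MIR222), and edgeR called none of them in any comparison.

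MIR365A, in an intron of MIR193BHG, held 0, 2 and 3 counts for clone A1, 27, 16 and 9 for clone A4, and 8, 6 and 0 for vector libraries A, B and C. All clone A4 libraries were above all libraries of the other groups. The mean was lowest in clone A1 (0.0414 CPM) and between them in vector (0.0968 CPM), whereas for the host row vector had the lowest mean. The row did not pass the filter on low counts, and without a filter its difference of clone A4 from vector was 1.91 (SE 1.57, adjusted p 0.917 in edgeR). MIR365B, another gene for a miR-365 hairpin, lies elsewhere in the genome, and reads that align to both places would enter neither row.

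**Figure D4:**
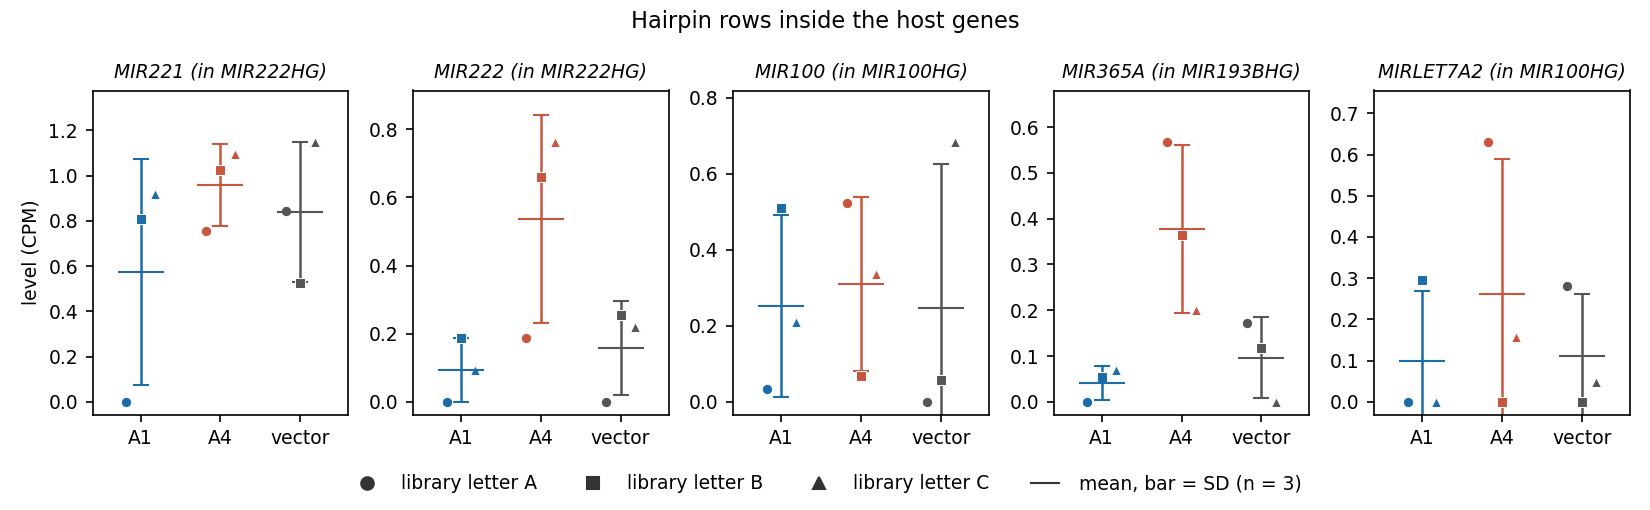
Level in CPM (y axis, scaled per panel) of the 5 hairpin rows with 50 or more counts in all, by group, with marker shape for the library letter and lines and bars for mean and SD (n = 3). MIR365A was at 0.202 to 0.567 CPM in clone A4 and at 0 to 0.173 CPM in the vector libraries, and no row was called.

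Other genes around the hosts gave the same null counts. On the same strand, ENSG00000269902 lies within MIR222HG without shared exon bases and was at 7.79 to 26.3 CPM, and BLID shares 83 exon bases with MIR100HG and was at 0 to 3.84 CPM. Neither was called in any comparison. For BLID, vector library B had 0 counts where clone A1 replicate A had 109.

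A wider set of noncoding microRNA hosts was counted in the same way. The tables hold 74 other genes with a symbol of the form MIR*HG, of which 30 were tested and 0 were called by edgeR in any comparison. With an unadjusted p under 0.05, 2 were higher and 1 was lower in clone A1, where 7.51% of all genes passed. In clone A4 against vector 4 of the 30 were higher and 0 lower, where 5.25% of all genes passed in either direction. In clone A4 against clone A1 6 of the 30 were higher and 0 lower, where 6.63% passed, and in the arm 2 were higher and 0 lower, where 5.71% passed. Their medians were 0.03 in clone A1, 0.22 in clone A4, 0.01 between the clones and 0.19 in the arm. The smallest p values were those of MIR1915HG and MIR646HG. MIR1915HG was at 44.5 to 59.8 CPM in clone A4 and at 27.0 to 28.7 CPM in the vector libraries (0.90, SE 0.196, unadjusted p 0.000608, adjusted p 0.188). MIR646HG was at 14.6 to 19.8 CPM in clone A4 and at 4.80 to 9.93 CPM in the vector libraries (1.14, SE 0.298, unadjusted p 0.00228, adjusted p 0.349).

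Protein-coding genes that carry intronic microRNAs were listed for comparison, and 0 of the 20 tested were called. Their medians were -0.17 in clone A1, -0.05 in clone A4 and -0.11 in the arm. CTDSPL, a phosphatase gene with miR-26a-1 in an intron, was at -0.45 in the arm (SE 0.183, adjusted p 0.784). SKA2, a spindle gene that carries miR-301a, was at -0.55 for clone A4 against clone A1 (SE 0.181, adjusted p 0.477).

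The machinery that handles these transcripts was listed too. Of the 26 processing and effector genes, 25 were tested and 0 were called, with medians of 0.03 in clone A1, -0.03 in clone A4 and 0.05 in the arm. The smallest p values were those of PRKRA, a DICER1 partner (0.50 in the arm, SE 0.154, adjusted p 0.552), and TNRC6B, an Argonaute partner in silencing (-0.43 in clone A1, SE 0.140, adjusted p 0.413). Of the 7 genes of the cap-binding complex and its partners, all 7 were tested, and NCBP2 was the only one called, higher in clone A1 and in clone A4 against vector. Of the 11 known regulators of host transcription, 0 were called, and EPAS1, a hypoxia-inducible factor, was among those with the smallest p values (-0.60 in clone A1, SE 0.244, adjusted p 0.597).

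The 3 hosts with the widest range of log2 CPM over the libraries were MIR155HG (5.42), MIR210HG (4.13) and MIR31HG (3.44), all of them low. Among 12549 tested genes with a mean log2 CPM of at least 1, the genes with the highest Pearson r to MIR155HG over the 9 libraries were SLC18A2 (0.988), KIF6 (0.968) and USP37 (0.954). For MIR210HG they were F3 (0.927), SLC17A7 (0.914) and LBX2-AS1 (0.909), and for MIR31HG they were TIGD6 (0.893), MZF1 (0.849) and IFT43 (0.840). These values describe likeness over 9 points that share clones and depth, are the highest of many, and carry no test.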

How the data were processed

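Each deposited table gives unnormalized read counts for every gene of 1 library. STAR 2.7.1a and GRCh38 are named per the submitters' processing notes; the counting program, its annotation and library strandedness are not given in the sources used here. The molecule label names polyadenylated RNA, while the labels' protocols describe ribosomal RNA removal. The column layout was read from the values: column 3, which held most stranded counts, was read as sense, column 4 as the opposite strand and column 2 as counts without regard to strand. The 4 lines that name no gene (44.5% to 63.6% of reads) were left out. Of 60609 identifiers, 60295 were matched to GENCODE 44 for symbols and coordinates.

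Groups came from the titles. One edgeR fit with 3 groups (edgeR 4.0.16, R 4.3.3, limma 3.58.1, robust quasi-likelihood test, TMM, filterByExpr with a minimum count of 10 and a total of 15) gave the clone comparisons, and one with 2 groups gave the 6 NCBP2 libraries against the 3 vector libraries. p-values were Benjamini-Hochberg adjusted over the 21682 genes tested, with a threshold of 0.05. CPM used TMM-scaled library sizes, and log2 CPM a prior count of 2. The procedure was tested on simulated data for the clone comparisons, with changes set only in well-counted genes. That test does not cover changes in hosts with low counts, nor the arm. Intervals and floors cover counting error only where they rest on counts, because reads are not independent molecules.

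All 10 hosts are named. A gene of another list is named if called. Where none of its list is called, it is named if it has 1 of the 2 smallest unadjusted p values. Genes named for overlap with a host were added with their values known, as were MYC, MYCN, E2F1, E2F3 and COL1A1. Results for 1 listed gene and 1 gene list are not reported here. Members and lists were chosen with earlier results of these data known. Alternatives were DESeq2 1.42.0, RLE scaling, no filter, counts without regard to strand, a replicate block, each library left out, only the 6 libraries compared, and counts summed per clone.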

Additional observations from a re-analysis of the deposited data

Results flagged for a closer look

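MIR193BHG was at 7.85 CPM in clone A1 replicate B, far below the other 5 NCBP2 libraries for the spread of that arm (11.05 to 12.0 CPM). Chance flags about 1 in 20 groups in this way. The MIR365A hairpin row, which did not pass the filter on low counts, had a mean of 0.377 CPM in clone A4, with every clone A4 library above every vector library (mean 0.0968 CPM); without a filter that difference was 1.91 (SE 1.57, adjusted p 0.917 in edgeR). On the opposite strand of MIR17HG, clone A4 had a mean of 0.0870 CPM, from 2 to 6 counts a library, with every clone A4 library above every vector library (0 to 1 count, mean 0.00651 CPM). The differences in these low counts on the opposite strand were not tested. The MIR365A and MIR17HG flags came from a scan of 20 hairpin rows and the opposite strands of 10 hosts, in both NCBP2 clones. Only higher levels were flagged, and with 3 libraries a group some such separations can arise by chance. For MIR365A the margin was 9 counts in clone A4 replicate C against 8 in vector library A.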

How the results depend on the processing

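No host was called under any of the 15 alternatives of each comparison. Of 40 values (10 hosts in 4 comparisons), 27 kept their sign under every alternative run and 13 did not, with 33 sign changes in all. The cause was not tested.

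With the replicate block the values were 0.086 for MIR210HG in clone A1, 0.008 for MIR100HG and -0.011 for MIR34AHG in clone A4, and -0.001 for MIR222HG in the arm. Without a filter they were -0.007 for MIR34AHG in clone A4 and -0.007 for MIR222HG in the arm, and without regard to strand -0.059 and -0.029. With counts summed per clone MIR222HG in the arm was -0.005.

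With libraries left out in turn, MIR100HG spanned -0.36 to 0.16 in clone A1, -0.23 to 0.29 in clone A4 and -0.29 to 0.23 in the arm, MIR210HG -0.71 to 1.44, -0.12 to 2.15 and -0.31 to 1.84. MIR34AHG in clone A4 spanned -0.24 to 0.15. In the arm, MIR17HG spanned -0.056 to 0.20 and MIR222HG -0.15 to 0.13. Between clones, MIR155HG spanned -1.01 to 0.005, MIR22HG -0.29 to 0.12, MIR29B2CHG -0.084 to 0.39 and MIR31HG -1.40 to 2.35. MIR31HG fell under the filter with only the 6 libraries compared and in the arm without clone A1 replicate A or clone A4 replicate C.

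Deviations of same-letter libraries had r from -0.102 to 0.179, over 0.1 in 6 of 9 pairs, and different letters r from -0.271 to 0.221, over 0.1 in 4 of 18. The labels do not say that the letters mark a shared batch, so the main fits did not use them as pairs. These r values do not decide whether the letters are pairs. The replicate block called 38, 53, 51 and 13 genes over all genes (main 14, 25, 35 and 4) in clone A1, clone A4, clone A4 against clone A1, and the arm, and 0 hosts. Over all alternatives these counts ranged over 3 to 312, 7 to 185, 10 to 246 and 0 to 103, the highest from DESeq2 or no filter. MIR210HG, MIR31HG and MIR155HG are limited by counts, and the arm by its 2 clones.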
